A study of Arabidopsis thaliana with 7 samples.

Results

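The homeodomain-leucine zipper class IV (HD-ZIP IV) genes of Arabidopsis thaliana were examined in a list of genomic sites of ZF-DDR5, made by chromatin immunoprecipitation followed by sequencing (ChIP-seq). The set was 10 listed genes, namely FWA, ATML1, PDF2, GL2, ANL2, HDG1, HDG2, HDG3, HDG11 and HDG12, out of 27444 protein-coding genes on the 5 nuclear chromosomes. They were looked up by locus in the RefSeq gene table of assembly TAIR10.1. All 10 were found, and all 10 names matched the table's symbol or synonyms. A ZF-DDR5 peak was counted at a gene when it was centred between 1000 bp before one edge and 1000 bp past the other.

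The study's 7 ChIP-seq samples came from seedlings at day 12, with 2 samples of ZF-DDR5, 2 of ZF-DDR4, 2 of Col-0 and 1 further Col-0. The titles of both ZF-DDR5 samples and of the further Col-0 hold the tag g3, which the sources used here do not explain. Only ZF-DDR5 replicate 1 had a peak list among the data analysed here. ZF-DDR5 names plants that carry the DDT-domain protein DDR5 joined to a zinc finger, and Col-0 is the untransformed wild-type accession. The promoter of the transgene and the number of lines behind the ZF-DDR5 samples were not given in the sources used here, and the ZF-DDR5 labels carry no antibody entry, although the shared protocol text names an anti-FLAG antibody and describes DDR4 fusion lines.

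The list held 9999 intervals with no score, so width was the one value each peak carried. All widths lay between 279 and 1981 bp, with a median of 484 bp and quartiles of 368 and 700 bp. Lists of the second replicate and of Col-0 were not analysed here. The values therefore have no replicate error, and whether untransformed plants show the same sites is unknown. Depth is unknown, and a gene without a listed peak is not shown to lack the protein. Reads from similar family members could be hard to place, which was not assessed.

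HD-ZIP IV proteins are plant transcription factors with a homeodomain that binds DNA, a leucine zipper through which they pair, and a START domain of the kind that binds lipids in animals. Most members act in the epidermis, where they set the identity of the outer cell layer and the fate of trichomes, root hairs and stomata. FWA stands apart in the family. It is silenced by DNA methylation over tandem repeats at its promoter in wild-type vegetative tissue, is expressed from the maternal copy in the endosperm, and delays flowering when the repeats lose methylation. The zinc finger used in this line of work was engineered to recognise those repeats, so FWA is the intended site, and its relatives resemble it in the encoded protein.

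Of the 10 listed genes, 6 had a peak: FWA, ATML1, PDF2, GL2, ANL2 and HDG2. The other 4, HDG1, HDG3, HDG11 and HDG12, had none. Over all protein-coding genes, 36.5% had a peak by the same rule. The listed genes are long, from 3951 bp (HDG12) to 6058 bp (PDF2), with a median of 5088.5 bp against 2078 bp over all protein-coding genes. Long genes hold more peaks in this list. Among genes within 20% of the length of each listed gene, the mean share with a peak was 53.6%, which corresponds to 5.36 of 10 genes. The share of 60% among the listed genes (Wilson 95% interval 31.3% to 83.2%, counting error only) included that value, so the count of 6 is close to what genes of these lengths show in general. A peak centre lay in the gene body of 5 of the 10, against 26.9% of all protein-coding genes and 4.58 of 10 for genes of similar length. No test was made, since the list comes from 1 sample.

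**Figure D1:**
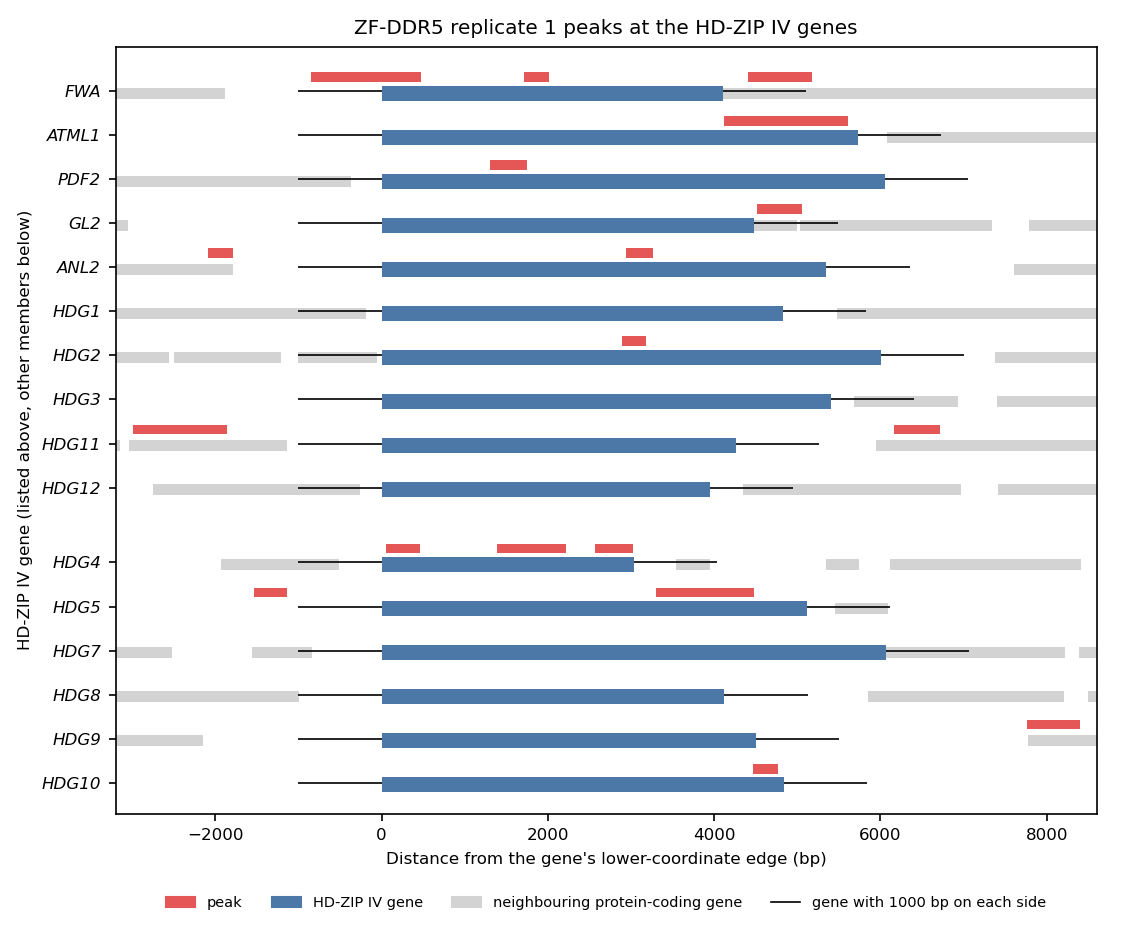
Map of the 16 HD-ZIP IV genes, the 10 listed ones above and the 6 others below, with the distance from the gene's lower-coordinate edge in bp on the horizontal axis. Red bars are peaks, blue bars the genes, grey bars neighbouring protein-coding genes, and black lines the gene with 1000 bp on each side. FWA and HDG4 each have 3 peaks in their windows, and 7 genes have none.

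FWA (AT4G25530), the gene the zinc finger was aimed at, had 3 peaks, the most of the 10. The widest, of 1320 bp, lay on chromosome 4 at chr4:13037515-13038834 (TAIR10, counted from 1 as are all intervals here). It straddled the gene's edge of lower coordinate, with 475 bp inside FWA and 845 bp outside, and its centre lay 186 bp beyond the edge. Between FWA and SLK1, the next protein-coding gene on that side, are 1888 bp, and the peak left 1043 bp of them free next to SLK1. SLK1 encodes a SEUSS-like transcriptional co-regulator and had no peak in its body or within 1000 bp. Only 3.61% of all peaks were as wide or wider. The gene table gives no strand, so the edge at which FWA transcription begins was not assigned.

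The second FWA peak, of 302 bp, lay inside the gene at chr4:13040077-13040378, 45.5% of the way from the lower-coordinate edge. It was among the narrowest in the list, as 95.4% of all peaks were as wide or wider. The third, of 771 bp at chr4:13042762-13043532, began 297 bp beyond the other edge of FWA. All of its 771 bp lay within MSH3, a DNA mismatch repair gene whose model shares 10 bp with the end of FWA. The peaks at the edge and in the body were separated by 1242 bp, and the body peak and the MSH3 peak by 2383 bp, against a median gap of 6301 bp between neighbouring peaks of the whole list. Gaps of at most those sizes made up 15.3% and 25% of all gaps. Having 3 or more peaks by this rule was seen at 1.38% of all protein-coding genes and at 2.97% of the 3878 genes within 20% of the length of FWA. If the peak in MSH3 is not counted, a choice made after seeing the data, FWA has 2 peaks, and 1 if only centres in the gene body count.

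**Figure D2:**
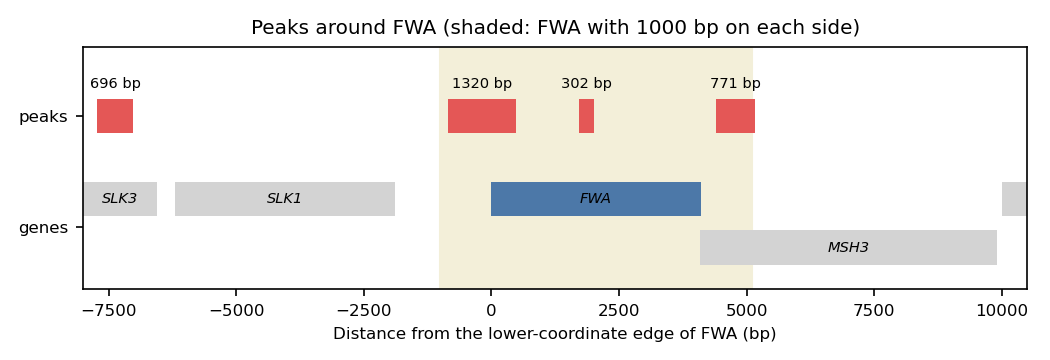
Peaks (red, with their widths) and protein-coding genes (FWA in blue, others in grey) around FWA, by distance in bp from its lower-coordinate edge; the shaded band is FWA with 1000 bp on each side. The peak of 1320 bp spans that edge, the peak of 302 bp is inside FWA and the peak of 771 bp is inside MSH3.

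ATML1 (AT4G21750) and PDF2 (AT4G04890) are closely related and redundant, and together they specify the epidermis of embryo and shoot. ATML1 carried the widest peak at any listed gene, 1492 bp at chr4:11559152-11560643. This peak lay wholly inside the gene, covered 26% of its length, and was centred 84.7% of the way along from the lower-coordinate edge. Its rank by width was 190 of 9999. PDF2 carried 1 peak of 447 bp at chr4:2477696-2478142, which covered 7.38% of the gene and ranked 5735. It was centred 25.2% of the way from the lower-coordinate edge. Both members of the pair thus had 1 peak inside the gene, but the one at ATML1 was among the widest 1.91% of the list and the one at PDF2 was narrower than the median. The surroundings differed too, with 3 peaks centred within 50 kb of the middle of ATML1 and 10 within 50 kb of the middle of PDF2. Each count includes the gene's own peak.

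GL2 (AT1G79840) promotes trichome development and holds root epidermal cells in the non-hair fate. Its peak of 545 bp at chr1:30041470-30042014 was centred 302 bp beyond the higher-coordinate edge. The peak began 29 bp past that edge as the gene table places it, a gap too small to be told from contact, since a small offset between the builds of peaks and genes would not be detected. GL2 was counted by its flank alone. GL2 also had the most crowded surroundings of the 10, with 18 peaks within 50 kb of its middle, its own peak included.

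ANL2 (AT4G00730) is required for anthocyanin accumulation beneath the leaf epidermis and for root cell organisation. It carried a peak of 317 bp at chr4:302206-302522, 58% of the way from the lower-coordinate edge. HDG2 (AT1G05230) acts in trichome and stomatal development. It carried one of 296 bp at chr1:1515785-1516080, near the middle of the gene at 50.6%. These were narrow peaks, as 90.1% and 97.6% of all peaks were as wide or wider. HDG1 (AT3G61150), a close relative of ANL2 with a role in cuticle formation, had no peak. Its nearest peak centre was 4901 bp away, in a peak of 1574 bp that lay in the gene AT3G61170.

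HDG11 (AT1G73360), which raises drought tolerance when overexpressed, and its close relative HDG12 (AT1G17920), which acts with it in trichome branching, both had no peak. HDG11 lay between peaks in the genes on either side. One of 1121 bp in AT1G73350 was centred 2425 bp from its lower-coordinate edge, and one of 548 bp in SUS6, a sucrose synthase gene, was centred 2175 bp from the other. HDG12 had peaks of 1202 bp and 342 bp on its 2 sides, centred 4514 bp and 4984 bp away. HDG3 (AT2G32370), which like FWA is imprinted in the endosperm but is expressed from the paternal copy, was the most distant from any peak among the 10. The nearest centre lay 11628 bp away, in AXL, a gene related to the auxin pathway component AXR1.

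Limits of 500 and 2000 bp in place of 1000 bp gave the same 6 genes with a peak. The farthest centre counted was that of the MSH3 peak, 683 bp from FWA. The nearest centre not counted was 1938 bp from ANL2, in a peak of 301 bp that lay in the kinase gene SK32, and ANL2 already had a peak of its own. All 4 listed genes on chromosome 4 had a peak, namely FWA, ATML1, PDF2 and ANL2, and 2 of the 6 elsewhere did. Genes of similar length correspond to 2.22 of 4 and 3.15 of 6, and the split was not tested. Over all protein-coding genes the share was 37.3% on chromosome 4 and 36.3% on the others. Peaks within 50 kb of the gene's middle had a median of 11 for the 6 genes with a peak and 9 for the 4 without. Over all protein-coding genes the median was 9 (quartiles 7 and 12). These counts include a gene's own peaks, which raises them by construction for genes with a peak. The medians of 11 and 9 therefore do not show whether the surroundings differ.

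The 8 peaks at the listed genes ranged from 296 to 1492 bp in width. Of these, 3 were wider than the upper quartile of all peaks (1492, 1320 and 771 bp) and 3 were narrower than the lower quartile (317, 302 and 296 bp). The other 2 measured 545 and 447 bp. Their median of 496 bp was close to the 484 bp of all peaks. The 5 peaks centred inside a listed gene had a median of 317 bp, from 296 bp in HDG2 to 1492 bp in ATML1. The median was 503.5 bp for the 1460 peaks centred in the 2535 protein-coding genes of the same range of lengths. Of those 5, the peaks in FWA, ANL2 and HDG2 were under 320 bp, as were 11.2% of the 1460. The limit of 320 bp was chosen after the widths were seen. The centres of the 5 lay a median of 1868 bp from the nearest gene edge (874 bp in ATML1 to 2968 bp in HDG2). In genes of the same range the median was 1162 bp (quartiles 566 and 1721 bp). That distance is bounded by gene length, and the comparison genes were not matched one by one to the 5. ATML1 (5733 bp), PDF2 (6058 bp), ANL2 (5352 bp) and HDG2 (6005 bp) lie in the upper part of the range. Whether length accounts for the difference was not tested.

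**Figure D3:**
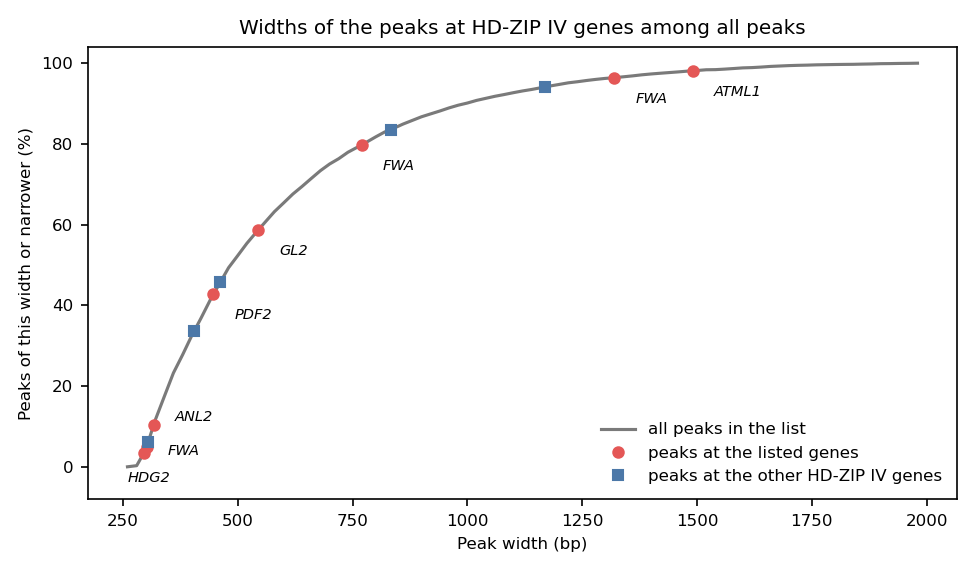
Cumulative share of all 9999 peaks by width in bp (grey line), with the peaks at the listed genes (red circles, named) and at the other HD-ZIP IV genes (blue squares) placed on it. The listed genes hold peaks at both ends, from 296 bp at HDG2 to 1492 bp at ATML1.

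The remaining 6 HD-ZIP IV genes gave 3 with a peak, HDG4, HDG5 and HDG10, and 3 without, HDG7, HDG8 and HDG9. The family as a whole thus had 9 of 16 genes with a peak, against 8.44 of 16 for genes of similar length. HDG4 (AT4G17710), the shortest member at 3034 bp, had 3 peaks inside the gene, of 405, 833 and 462 bp, which together covered 56% of it, the highest share in the family. Genes within 20% of its length had 3 or more peaks in the gene or within 1000 bp in 1.34% of cases. HDG5 (AT5G46880), which the gene table lists under the symbol HB-7, carried a peak of 1170 bp at chr5:19034150-19035319, and HDG10 (AT1G34650) one of 305 bp at chr1:12697463-12697767. FWA and HDG4 were the family members with more than 1 peak. At HDG4 all 3 centres lay in the gene, whereas at FWA 1 of 3 did.

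HD-ZIP III proteins share the START domain with class IV and control leaf polarity, meristems and vascular tissue. Of the 5 HD-ZIP III genes, 3 had a peak, against 2.71 for genes of similar length. HB8, a regulator of vascular precursor cells, had 2, the wider of 1471 bp at chr4:15866376-15867846, close in width to that of ATML1. CNA had a peak of 597 bp and REV, which acts in leaf polarity and meristem formation, one of 447 bp. PHB and PHV had none.

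Genes that act with HD-ZIP IV factors in the epidermis, or downstream of them, formed a list of 25, of which 4 had a peak (16%, Wilson 95% interval 6.4% to 34.7%), against 36.5% of all protein-coding genes and 9.68 of 25 for genes of similar length. EGL3, a bHLH protein of the complex that starts trichomes, had 2 peaks, of 498 and 306 bp. LACS2, an acyl-CoA synthetase of cutin synthesis, had one of 428 bp. BDG, named BDG1 in the gene table and needed for the cuticle, had one of 301 bp. At TTG2, a WRKY factor of trichomes and seed coat, the peak of 374 bp was centred 957 bp from the gene, inside the neighbouring gene ADK. The 21 genes without a peak included the MYB genes GL1 and WER, the bHLH gene GL3, the small MYB inhibitors TRY and CPC, the outer-layer gene PDF1 and DEK1, which at 11371 bp was the longest gene of the list. In the gene body, 3 of the 25 had a peak centre, against 7.31 for genes of similar length. No test was made of these shares, and the list was put together for this description with earlier results of the same peak list known.

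**Figure D4:**
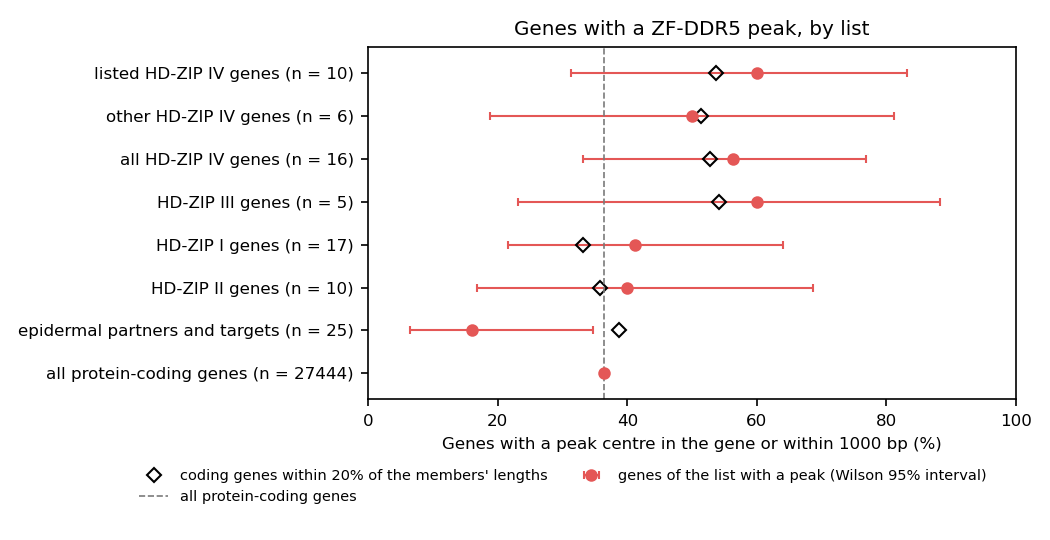
Share of genes with a peak centre in the gene or within 1000 bp, in percent, for each list and for all protein-coding genes; red points carry Wilson 95% intervals (counting error only), open diamonds give the mean share among protein-coding genes within 20% of the members' lengths, and the dashed line marks all protein-coding genes. The listed HD-ZIP IV genes stand at 60% with their diamond at 53.6%, and the epidermal genes at 16% with theirs at 38.7%.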

How the data were processed

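The values come from the deposited peak list of ZF-DDR5 replicate 1, which has 3 columns, chromosome, start and end, and no other score or value. Per the submitters' processing notes, the tools were Bowtie2 2.4.2, fastp 0.20.1, Picard 2.25.6, deepTools 3.5.1 and SAMtools, with the build TAIR10. Not given in the sources used here are the peak caller, its threshold and control, any pooling of replicates and any limit on the number of rows. Each of these could change which genes have a peak.

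Starts were counted from 1 and each peak was represented by its centre. Genes came from the RefSeq table of TAIR10.1, whose name differs from the build of the peaks, so gene coordinates are not printed. Distances to gene edges assume one frame. Shifting the peaks by 200 to 5000 bp either way left at most 8311 centres in protein-coding genes, against 8493 unshifted. All 73 genes of the 6 lists matched by locus, and 72 of them also by symbol or synonym. Peaks were counted with Python 3.11.15, numpy 2.4.6 and pandas 2.3.3, and Wilson intervals came from scipy 1.17.1. The counting was tested on simulated data.

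All 10 listed genes and the other HD-ZIP IV genes were named. From the further lists, up to 4 genes were named in order of peak width, with some genes without a peak chosen after their values were seen. The members and lists were chosen with earlier results of these data known. The planned comparison of protein and promoter sequences was not run.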

Additional observations from a re-analysis of the deposited data

How the results depend on the processing

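Of 36 alternatives, 24 kept a count within 1.5 times or a share within its interval. The number of listed genes with a peak was 5 or 6, except 3 with the wider 50% of the peaks, which left FWA, ATML1 and GL2. That setting leaves 4999 peaks by construction. It gave 4 peaks at the listed genes, 5 of 16 HD-ZIP IV genes and 20.6% of all protein-coding genes. With the gene body only, there were 5 peaks at the listed genes, 1 at FWA, and 26.9% of all genes had a peak. The share of all genes was 30.4% with flanks of 500 bp, 46.8% with 2000 bp, 39.8% with any overlap of 1 bp, and 28.9% when peaks centred in another protein-coding gene were not counted, an alternative chosen after seeing the data. It was 53.6% for genes of the members' lengths. Flanks of 2000 bp brought the peak in SK32 to ANL2 and added no gene. Without a score in the file, a stricter calling threshold could not be applied. No paired analysis was possible because only 1 sample had a peak list. The unknown depth limits what the absence of a peak at HDG1, HDG3, HDG11 or HDG12 can show.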

Other observations

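The HD-ZIP I and II genes encode homeodomain-leucine zipper proteins without a START domain, many of which act in responses to light, water deficit and hormones. Of the 17 HD-ZIP I genes, 7 had a peak, against 5.64 for genes of similar length. The widest were at HB12 (732 bp), a gene induced by water deficit, HB52 (414 bp), HB53 (396 bp) and HB3 (393 bp). The HB12 peak lay wholly in the gene and covered 59% of it. Of the 10 HD-ZIP II genes, 4 had a peak, against 3.57 for genes of similar length. HAT3, a gene of leaf polarity and shade response, had 3 peaks in the gene (358, 445 and 400 bp) that covered 56.9% of it. With these 3 included, 21 peaks lay within 50 kb of its middle. HAT2 had 2, of 431 and 287 bp, the wider of them centred in the neighbouring gene AT5G47360. HB18 had one of 364 bp and HAT9 one of 309 bp. HAT4, a gene induced by shade, had none.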
